A study of Homo sapiens with 4 samples.

Results

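The genes described here are 33 listed genes of the hypoxia response and of glycolysis, followed across 4 arrays of human neuroendocrine tumour cells. A gene was a member if the platform annotation gave its symbol alone to a probe set, and of several such probe sets the 1 brightest on average across the arrays stands for it. By this rule 32 of the 33 listed genes were found, among 19775 genes in all. CA9 is not analysed here. LOX had a mean under the filter level of 4.85 on the log2 scale, which left 31 members among 14648 tested genes.

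The study lowered DAXX, a chaperone of histone H3.3, with siRNA in QGP1, labelled a pancreatic neuroendocrine tumour line, and in NCI-H727, labelled a bronchial one. Each line gave 1 array with a universal negative control siRNA (control) and 1 with siRNA against DAXX (DAXX-KD). All 4 samples, controls included, were electroporated, with siRNA at a final 50 nM. 2 DAXX siRNAs are named without saying whether they were pooled, and there was no unelectroporated sample. The oxygen level, cell density and time after electroporation, which bear on these genes, are not given in the sources used here.

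The line names rest on the sample titles, since the source labels of the NCI-H727 pair name QGP1 as well. Markers of the tissues did not all follow the titles. NKX2-1, the lung and thyroid transcription factor, read 8.77 and 8.38 on the arrays labelled QGP1 and 3.35 and 3.23 on those labelled NCI-H727. GRP, a peptide of pulmonary neuroendocrine cells, read 12.80 and 11.76 against 5.37 and 4.12. RFX6, an islet transcription factor, went the other way, at 3.18 and 3.31 against 9.33 and 9.69, and NKX2-2 likewise, at 4.80 and 5.93 against 9.17 and 9.25. The other islet transcription factors on the list did not follow them. PAX6 (-1.31, limma adjusted p = 0.00196) and ISL1 (-0.65, limma adjusted p = 0.0142) were higher under the QGP1 label, and PDX1 and MNX1 differed by 0.22 and -0.02, neither called. SST, the islet and gut peptide somatostatin, was higher under the QGP1 label, at 13.83 and 13.07 against 11.87 and 11.80. The other bronchial markers past the filter were mixed. FOXA1 was higher under the QGP1 label (-1.30, limma adjusted p = 0.00112), while CALCA and SFTPB differed by -0.23 and 0.04, neither called. Whether the line names are exchanged was not tested, so every direction between the lines below is between arrays so labelled.

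Of the neuroendocrine markers, 10 of 10 on the array were past the filter level on all 4 arrays. The islet hormones GCG and INS and the airway marker SCGB1A1 stayed under it on all 4. Of the leukocyte markers on the array 3 of 4 had means past it and PTPRC did not. LYZ read 6.85 and 7.04 under the QGP1 label and 8.80 and 8.90 under the NCI-H727 label, and CD3E and CD14 stayed between 4.73 and 5.36. Of the fibroblast and endothelial markers 4 of 7 had means past it (COL1A1 at 7.25 to 7.66, DCN, PECAM1 and VWF), while COL1A2, COL3A1 and CDH5 stayed under it. The part of other cell types in the results was not tested. DAXX itself read 8.52 in the control and 6.56 in the DAXX-KD array of QGP1, and 7.35 and 6.14 in those of NCI-H727. Array medians lay between 5.31 and 5.36, and the arrays of 1 line correlated across genes at 0.993 in QGP1 and 0.988 in NCI-H727, against 0.828 between the controls.

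When oxygen falls, prolyl hydroxylases of the EGLN family stop marking the alpha subunits of the hypoxia-inducible factors (HIF) for destruction by the VHL ubiquitin ligase. HIF then binds short motifs near its target genes. The targets include glucose transporters, most enzymes of glycolysis, the kinase PDK1 that keeps pyruvate out of mitochondria, and secreted signals such as VEGFA. Many glycolytic steps are served by several isozymes from different genes, whose balance differs between tissues and tumours.

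The stretches below are the 250 bases before the start of 6 genes, shown because these members differed most between the lines among those called with 1 start in the table. They come from RefSeq (GRCh38.p14), 5′ to 3′ on the gene's strand, and capitals mark the core letters of the HIF motif, ACGTG or GCGTG, on either strand (CACGT or CACGC). The letters CACGTG match on both strands and are counted on each.
ADM, chr11:10304823-10305072, plus strand: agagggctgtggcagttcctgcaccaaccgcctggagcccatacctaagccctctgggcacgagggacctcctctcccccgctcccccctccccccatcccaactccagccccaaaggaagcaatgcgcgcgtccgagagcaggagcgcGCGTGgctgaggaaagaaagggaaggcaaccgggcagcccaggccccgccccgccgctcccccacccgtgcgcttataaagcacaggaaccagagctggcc
PKM, chr15:72231191-72231440, minus strand: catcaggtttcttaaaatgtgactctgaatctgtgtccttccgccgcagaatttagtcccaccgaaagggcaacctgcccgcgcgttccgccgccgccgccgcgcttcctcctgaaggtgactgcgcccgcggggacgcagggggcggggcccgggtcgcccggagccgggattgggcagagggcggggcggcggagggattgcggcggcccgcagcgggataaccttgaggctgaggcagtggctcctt
CA12, chr15:63381847-63382096, minus strand: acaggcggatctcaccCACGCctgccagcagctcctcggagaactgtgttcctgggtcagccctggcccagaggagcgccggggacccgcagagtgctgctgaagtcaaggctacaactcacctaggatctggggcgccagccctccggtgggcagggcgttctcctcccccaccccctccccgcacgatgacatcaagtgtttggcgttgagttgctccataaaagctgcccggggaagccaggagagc
GPI, chr19:34364742-34364991, plus strand: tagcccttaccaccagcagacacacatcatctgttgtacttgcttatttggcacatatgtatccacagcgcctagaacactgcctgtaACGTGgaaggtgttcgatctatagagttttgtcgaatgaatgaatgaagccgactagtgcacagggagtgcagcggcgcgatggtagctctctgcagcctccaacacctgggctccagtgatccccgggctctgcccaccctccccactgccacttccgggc
ALDOC, chr17:28576896-28577145, minus strand: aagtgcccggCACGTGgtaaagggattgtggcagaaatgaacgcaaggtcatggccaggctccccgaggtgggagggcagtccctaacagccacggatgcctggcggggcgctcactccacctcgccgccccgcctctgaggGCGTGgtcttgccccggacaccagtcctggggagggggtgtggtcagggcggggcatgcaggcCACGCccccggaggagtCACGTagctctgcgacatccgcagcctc
BNIP3, chr10:131981924-131982173, minus strand: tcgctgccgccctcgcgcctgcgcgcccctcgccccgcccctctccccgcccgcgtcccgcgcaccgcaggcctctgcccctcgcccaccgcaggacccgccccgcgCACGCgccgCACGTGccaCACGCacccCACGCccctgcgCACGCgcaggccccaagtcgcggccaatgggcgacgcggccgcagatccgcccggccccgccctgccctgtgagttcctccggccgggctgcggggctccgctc

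ADM had 1 match, 101 bases before the start, CA12 had 1 at 234 bases and GPI had 1 at 162 bases. BNIP3 had 6 matches between 104 and 143 bases before its start, and ALDOC had 5 between 28 and 240. PKM had none in this window. Over the members, 33 of 53 promoters held a match (62.3%, from 28 genes with an entry), against 43.2% of all 35116 promoters of the table. The member promoters were also richer in G and C, with a median of 68.4% against 58.0%. Among members called higher under the NCI-H727 label 12 of 15 promoters held a match (80.0%, median G and C 70.8%), and among those called lower 6 of 19 (31.6%, 63.6%). By gene the shares were 9 of 11 and 5 of 6, since some genes have many starts. Over all members 24 of 28 genes held a match (85.7%), against 47.4% of all genes of the table. A match is a count of letters and not a bound site, and these shares were not tested.

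**Figure D1:**
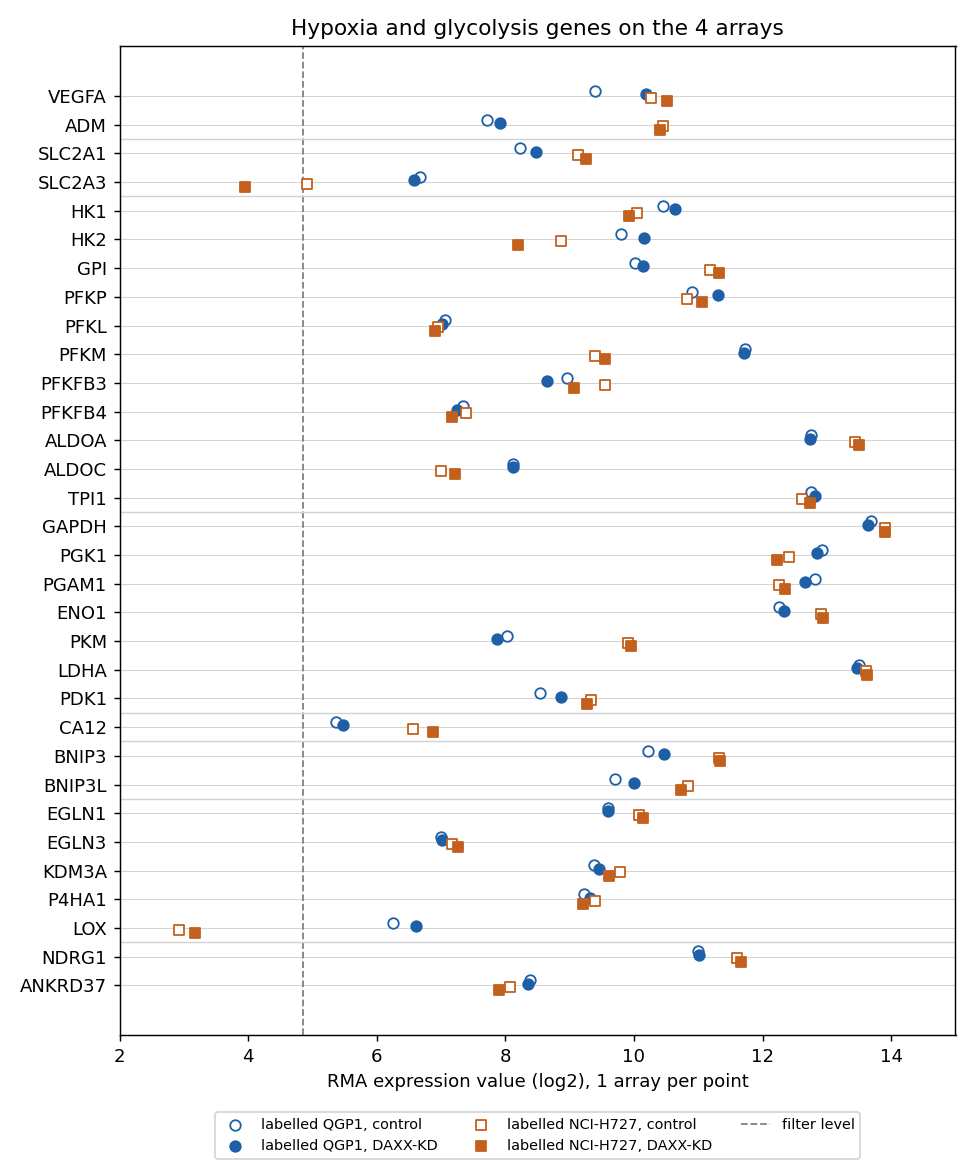
RMA expression value (log2, x axis) of each member on the 4 arrays, 1 array per point, grouped by role; the dashed line is the filter level of 4.85. Circles (labelled QGP1) and squares (labelled NCI-H727) stand apart for 28 of 31 tested members, among them ADM, PKM and PFKM. The same is true of 77.2% of all genes. SLC2A3 and LOX have values under the filter level on arrays labelled NCI-H727.

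The first comparison asked how the 2 lines differ in these genes. A limma fit with treatment as a term tested NCI-H727 minus QGP1 over all 14648 genes, with a Benjamini-Hochberg adjusted p under 0.05 as the call. It rests on 2 arrays per line that differ in treatment, and nothing says that any came from a repeated culture. Of 31 members, 14 were called higher under the NCI-H727 label and 7 lower, while 10 were not called. Among all genes 23.2% were called higher and 25.1% lower, 48.3% in all. The member median of the difference was 0.25 and that of all genes 0.05. The arrays of the 2 lines did not overlap for 28 members, which is also true of 77.2% of all genes. Fits that left out 1 array had no treatment term and left 1 line with a lone array, assumed to vary like the other line's 2, and in them the share of all genes called fell to between 30.8% and 45.5%. A gene whose mean in 1 line lies under the filter level is given as at least so many fold, its brighter mean set against that level, which is a filter and not a measured background. Tissue of origin, culture and array handling go with the line and cannot be told apart.

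**Figure D2:**
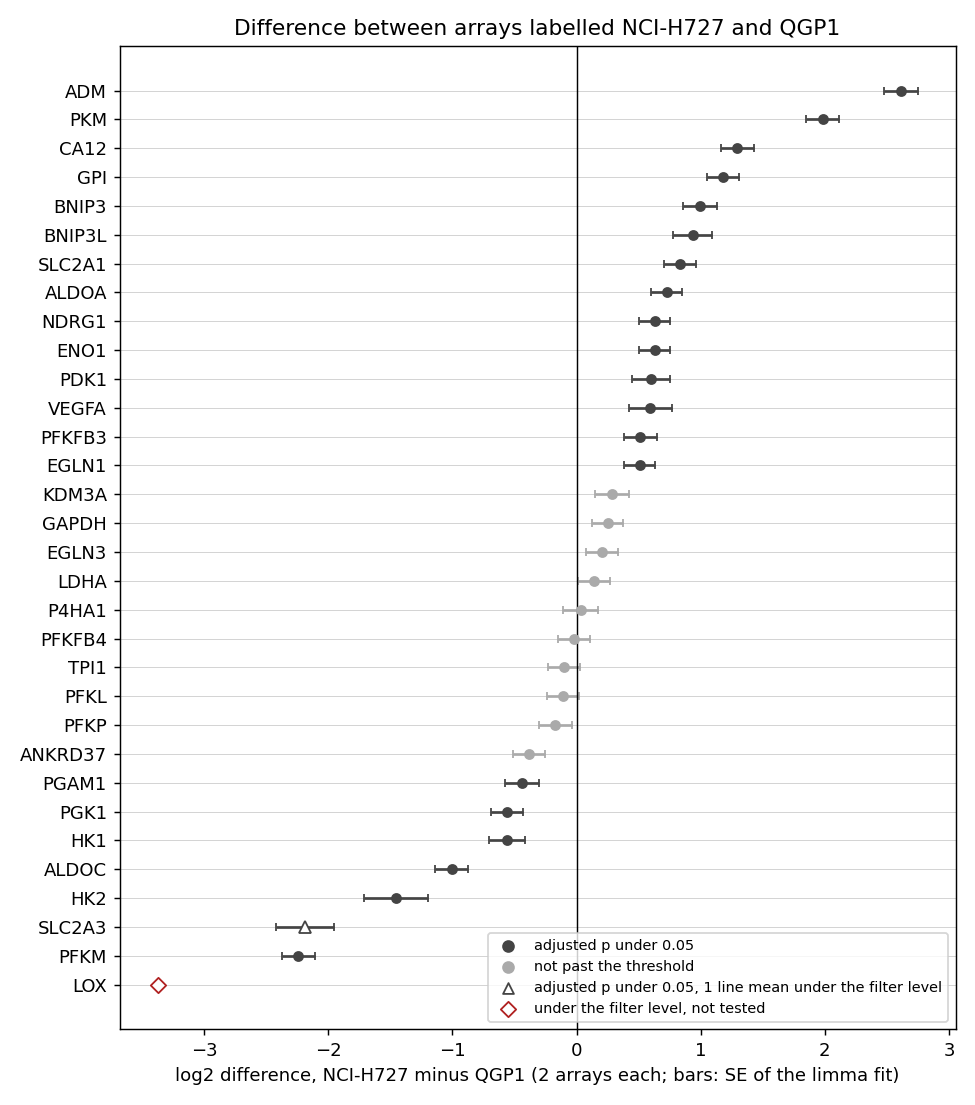
log2 difference between arrays labelled NCI-H727 and QGP1 (x axis, means of 2 arrays each; bars are the SE of the limma fit) for each member. The values run from -2.24 for PFKM to 2.61 for ADM among tested members. Of 31 members 14 were called higher and 7 lower, where 23.2% and 25.1% of all genes were. Open triangle and open diamond mark SLC2A3 and LOX, whose NCI-H727 means lie under the filter level, so that the plotted difference is no measured fold; LOX was not tested.

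The secreted signals were higher under the NCI-H727 label. ADM, the vasodilator peptide adrenomedullin, read 7.72 and 7.92 on the control and DAXX-KD arrays of QGP1 and 10.45 and 10.41 on those of NCI-H727. This was a 6.1-fold difference (log2 2.61, SE 0.14, limma adjusted p = 0.00013), the largest positive difference among the tested members. VEGFA, the main growth factor for blood vessels, read 9.39 and 10.19 in QGP1 and 10.26 and 10.52 in NCI-H727. Its difference of 0.59 (SE 0.17, limma adjusted p = 0.0394) was smaller, and the QGP1 DAXX-KD array lay just under the NCI-H727 control. The controls alone differed by 0.87 and the DAXX-KD arrays alone by 0.32. VEGFA's call was lost without the QGP1 control (0.19, limma adjusted p = 0.509), without either NCI-H727 array (0.72 and 0.47, adjusted p = 0.172 and 0.366), with no treatment term (adjusted p = 0.136) and with no filter (adjusted p = 0.055). All 4 VEGFA probe sets were higher under the NCI-H727 label, by 0.59 to 0.90.

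The 2 glucose transporters went opposite ways. SLC2A1, the basal transporter GLUT1, read 8.23 and 8.48 in QGP1 and 9.12 and 9.26 in NCI-H727, 1.79-fold higher under the NCI-H727 label (log2 0.84, SE 0.13, limma adjusted p = 0.0047). SLC2A3, the high-affinity neuronal transporter GLUT3, read 6.67 and 6.58 in QGP1 and 4.92 and 3.95 in NCI-H727. SLC2A3 passed the filter through the QGP1 arrays, and 1 of the 2 NCI-H727 arrays lay past the level. By the line means of this probe set SLC2A3 was at least 3.41-fold lower under the NCI-H727 label (limma adjusted p = 0.00132, tested on the dim values as they stand). That bound holds for the means alone. The controls, both past the level, differed by -1.75, slightly less than the bound. The other SLC2A3 probe sets were lower there too, with both NCI-H727 values under the filter level. SLC2A3 and its near-identical copy SLC2A14 share probes, so the SLC2A3 values are uncertain as to which copy was read. A probe set annotated to both read 6.69 and 6.62 in QGP1 and 5.21 and 5.71 in NCI-H727, a smaller gap. Another annotated to both read 6.55 and 6.33 against 3.58 and 3.50.

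Both hexokinases, which trap glucose in the cell as glucose 6-phosphate, were lower under the NCI-H727 label. HK1, the widely expressed form, read 10.45 and 10.64 in QGP1 and 10.05 and 9.93 in NCI-H727 (-0.56, SE 0.14, limma adjusted p = 0.0264). HK2, the inducible form of muscle and many tumours, read 9.81 and 10.16 against 8.86 and 8.19. HK2 was 2.74-fold lower at this probe set (log2 -1.46, SE 0.26, limma adjusted p = 0.00758). The 2 dimmer HK2 probe sets were not lower, at 0.09 and 0.52, and with the mean of its probe sets HK2 differed by -0.28 and lost the call (limma adjusted p = 0.231). The HK1 difference stayed between -0.66 and -0.46 when each array was left out, and its adjusted limma p was over 0.05 without either QGP1 array or the NCI-H727 DAXX-KD array (0.0531 to 0.124).

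GPI, which turns glucose 6-phosphate into fructose 6-phosphate, read 10.01 and 10.14 in QGP1 and 11.19 and 11.33 in NCI-H727. This was 2.26-fold higher under the NCI-H727 label (log2 1.18, SE 0.13, limma adjusted p = 0.0014). The gap between the lines was far wider than that between the control and DAXX-KD arrays of either, which is no replicate spread.

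The 3 genes of phosphofructokinase, the committed step of glycolysis, did not move together. PFKM, the muscle form, read 11.73 and 11.71 in QGP1 and 9.40 and 9.55 in NCI-H727, 4.74-fold lower under the NCI-H727 label (log2 -2.24, SE 0.13, limma adjusted p = 0.000197). PFKP, the platelet form, read 10.91 and 11.31 against 10.82 and 11.06, so that the lines overlapped (-0.17, SE 0.13, limma adjusted p = 0.33). PFKL, the liver form, differed by -0.11 (SE 0.13, limma adjusted p = 0.506). PFKM was thus the 1 phosphofructokinase gene called, and it has 1 probe set. Differences of this kind compare 1 gene between lines and say nothing of which isozyme is most abundant.

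PFKFB3 and PFKFB4 make and break fructose 2,6-bisphosphate, the activator of phosphofructokinase. PFKFB3 read 8.95 and 8.65 in QGP1 and 9.55 and 9.07 in NCI-H727 (0.51, SE 0.13, limma adjusted p = 0.0264). PFKFB3 varied more with the arrays used. Its difference was 0.67 and 0.36 without the QGP1 control and DAXX-KD arrays (limma adjusted p = 0.122 and 0.363), 0.27 without the NCI-H727 control (0.28) and 0.75 without the NCI-H727 DAXX-KD array, where it was called. With no treatment term PFKFB3 was not called (limma adjusted p = 0.0934). PFKFB4 differed by -0.02 (SE 0.13), with overlapping lines.

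The aldolases, which split fructose 1,6-bisphosphate, went opposite ways. ALDOA, the form of muscle and most cells, read 12.76 and 12.73 in QGP1 and 13.44 and 13.50 in NCI-H727 (0.72, SE 0.13, limma adjusted p = 0.00741). Its 3 probe sets were all higher under the NCI-H727 label, by 0.71 to 1.24. ALDOC, the form of brain, read 8.12 and 8.12 against 7.01 and 7.22, 2.01-fold lower (log2 -1.01, SE 0.13, limma adjusted p = 0.0029). TPI1, which interconverts the products of aldolase, differed by -0.10 (SE 0.13, limma adjusted p = 0.539).

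The later steps of glycolysis were split as well. PKM, the pyruvate kinase of most adult cells and tumours, read 8.03 and 7.87 in QGP1 and 9.91 and 9.96 in NCI-H727. PKM was 3.95-fold higher under the NCI-H727 label (log2 1.98, SE 0.13, limma adjusted p = 0.000298), and its second probe set differed by 1.10. ENO1, the general enolase, read 12.26 and 12.33 against 12.91 and 12.94 (0.63, SE 0.13, limma adjusted p = 0.0117), with both other probe sets past the filter higher too, at 1.27 and 0.44.

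PGK1, which makes the first ATP of the pathway, read 12.92 and 12.84 in QGP1 and 12.41 and 12.23 in NCI-H727. It was 1.47-fold lower under the NCI-H727 label (log2 -0.56, SE 0.13, limma adjusted p = 0.0184), and 5 of 5 probe sets past the filter were lower, by -0.54 to -0.89. PGAM1, the mutase after it, read 12.82 and 12.66 against 12.26 and 12.34 (-0.44, SE 0.14, limma adjusted p = 0.0473). GAPDH differed by 0.25 (SE 0.13, limma adjusted p = 0.164) and LDHA, which turns pyruvate into lactate, by 0.14 (SE 0.13, limma adjusted p = 0.405). GAPDH, LDHA, ALDOA, PGK1 and ENO1 have processed pseudogenes whose transcripts could share probes.

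PDK1, the kinase that switches off pyruvate dehydrogenase, read 8.54 and 8.86 in QGP1 and 9.34 and 9.27 in NCI-H727 (0.60, SE 0.15, limma adjusted p = 0.0251). Several of the smaller differences among these enzymes kept their size with 1 array fewer but not always their call. PGAM1 stayed between -0.52 and -0.36 and was not called in any of the 4 such fits (limma adjusted p from 0.0593 to 0.191), nor without the filter (0.0629). PGK1 stayed between -0.65 and -0.47, and was not called without either QGP1 array or the NCI-H727 DAXX-KD array (limma adjusted p from 0.0533 to 0.104). PDK1 ranged from 0.44 to 0.76, and was not called without the QGP1 control or either NCI-H727 array (limma adjusted p from 0.0583 to 0.128). ENO1 stayed between 0.59 and 0.66, and was not called without the QGP1 control (limma adjusted p = 0.0634).

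The acid-handling and mitophagy genes were higher under the NCI-H727 label. CA12, a membrane carbonic anhydrase that acidifies the outside of the cell, read 5.37 and 5.47 in QGP1 and 6.56 and 6.87 in NCI-H727 (log2 1.29, SE 0.13, limma adjusted p = 0.00124). Its 7 probe sets disagreed: those past the filter differed by 0.003 to 2.04, and without x_at and s_at probe sets the CA12 difference was 0.003 and not called (limma adjusted p = 0.992). BNIP3, a mitochondrial outer membrane protein that recruits autophagosomes, read 10.21 and 10.46 against 11.32 and 11.34. BNIP3 was 1.99-fold higher under the NCI-H727 label (log2 0.99, SE 0.14, limma adjusted p = 0.00315). Its relative BNIP3L read 9.70 and 9.99 against 10.84 and 10.73, 1.91-fold higher (log2 0.93, SE 0.15, limma adjusted p = 0.00584). The second probe sets of BNIP3 and BNIP3L differed by more, 1.51 and 1.75.

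Of the oxygen-dependent enzymes past the filter, 1 of 4 was called, where 48.3% of all genes were. EGLN1, the main HIF prolyl hydroxylase, read 9.59 and 9.60 in QGP1 and 10.07 and 10.14 in NCI-H727 (0.51, SE 0.13, limma adjusted p = 0.0239). EGLN3, which HIF itself induces, differed by 0.20 (SE 0.13, limma adjusted p = 0.247), KDM3A, a histone H3K9 demethylase, by 0.28 (SE 0.14, limma adjusted p = 0.147), and P4HA1, a collagen prolyl hydroxylase subunit, by 0.03 (SE 0.14). With the mean of its probe sets EGLN3 differed by 0.45 and was called (limma adjusted p = 0.0199). The EGLN1 difference was 0.50 and 0.52 without the QGP1 control and DAXX-KD arrays, about as large as with all 4, and not called in either fit (limma adjusted p = 0.0965 and 0.0915).

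LOX, the copper enzyme that cross-links collagen, was left out of the test by its low mean. It read 6.25 and 6.61 in QGP1 and 2.92 and 3.18 in NCI-H727, both of the latter under the filter level. LOX was thus at least 2.97-fold lower under the NCI-H727 label, a value with no test. Its second probe set read 5.69 and 5.99 against 2.65 and 2.58, and the third stayed at 3.01 to 3.62 on the 4 arrays.

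NDRG1, a stress protein strongly induced by low oxygen, read 10.99 and 11.01 in QGP1 and 11.60 and 11.66 in NCI-H727 (0.63, SE 0.13, limma adjusted p = 0.0117). The NDRG1 difference stayed between 0.60 and 0.66 with 1 array fewer, and was not called without either QGP1 array (limma adjusted p = 0.0577 and 0.0538). ANKRD37, an ankyrin repeat protein and HIF target, differed by -0.38 (SE 0.13, limma adjusted p = 0.0602), and was called in limma with no treatment term (0.0475) and without the NCI-H727 control (0.0474).

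**Figure D3:**
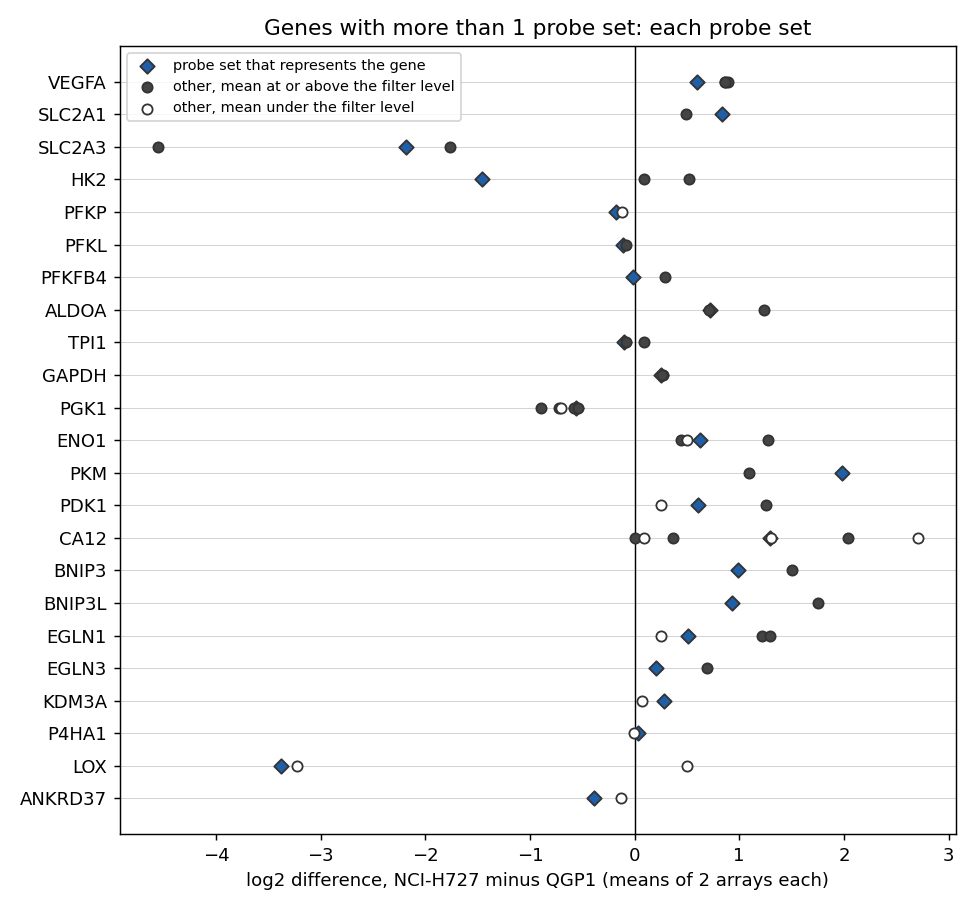
log2 difference NCI-H727 minus QGP1 (x axis, means of 2 arrays each) of each probe set of the members with more than 1; diamonds represent the gene, filled circles are other probe sets at or above the filter level and open circles those under it. All probe sets past the filter share a sign in 12 of the 13 called members with more than 1, and HK2 is the exception.

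Genes of the same pathway that are not members were read from fixed lists. The counts called in this list and in those that follow stand beside the shares of all genes. These were 23.2% higher and 25.1% lower under the NCI-H727 label, 48.3% in all. Of 19 tested regulators of HIF, 6 were called higher under the NCI-H727 label and 4 lower. HIF1A, the oxygen-regulated subunit, differed by 0.12 (SE 0.13, limma adjusted p = 0.483), whereas EPAS1, which encodes HIF-2 alpha, was higher by 0.47 (SE 0.14, limma adjusted p = 0.0397). VHL read 7.93 and 7.97 in QGP1 and 7.20 and 7.27 in NCI-H727 (-0.71, SE 0.13, limma adjusted p = 0.00764). The partner subunit ARNT differed by -0.05 and the asparaginyl hydroxylase HIF1AN by -0.37, neither called. LIMD1, a scaffold of the hydroxylase and VHL, was higher by 0.93, ELOB, a subunit of the VHL ligase, by 0.78, and OS9 was lower by -0.79. EGLN2 was under the filter level.

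Of 33 further hypoxia targets tested, 10 were called higher and 10 lower. ERO1A, an oxidase of the endoplasmic reticulum, was higher by 2.33 and AK4, a mitochondrial adenylate kinase, by 2.11 (limma adjusted p = 0.000246 and 0.000208). KDR, a VEGFA receptor, read 4.45 and 4.94 in QGP1, 1 of the 2 past the filter level, and 6.98 and 7.17 in NCI-H727. KDR passed the filter through the NCI-H727 arrays and was at least 4.66-fold higher (limma adjusted p = 0.000202, tested on the dim values). Over this list the median difference was -0.03, against 0.25 over the members.

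Of 16 other isozymes and transporters tested, 4 were called higher and 6 lower. SLC2A10, a transporter of the same family as GLUT1, read 2.75 and 3.16 in QGP1, under the filter level, and 8.04 and 7.35 in NCI-H727 (at least 7.16-fold higher, limma adjusted p = 0.000179). ENO3, the muscle enolase, read 9.76 and 9.75 against 6.14 and 6.05 (-3.66, SE 0.13, limma adjusted p = 3.78e-05). ENO2, the neuron-specific enolase used as a neuroendocrine marker, read 9.01 and 8.94 against 7.80 and 7.66 (-1.24, SE 0.13, limma adjusted p = 0.00121). ENO1 was therefore higher and both ENO2 and ENO3 lower under the NCI-H727 label. HKDC1, a further hexokinase, read 4.41 and 4.63 in QGP1, under the filter level, and 8.02 and 7.89 in NCI-H727 (at least 8.58-fold higher, limma adjusted p = 7.13e-05). Like SLC2A10, it passed the filter through the NCI-H727 arrays and was tested on the dim values as they stand.

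Of 21 genes of pyruvate and lactate handling, 5 were called higher and 5 lower. SLC16A7, the high-affinity monocarboxylate carrier MCT2, read 8.26 and 8.91 in QGP1 and 3.60 and 3.29 in NCI-H727, under the filter level. Past the filter through the QGP1 arrays alone, SLC16A7 was at least 13.3-fold lower (limma adjusted p = 9.76e-05, tested on the dim values as they stand). PDK4, a starvation-induced relative of PDK1, went against PDK1, at -1.88 (SE 0.22, limma adjusted p = 0.00186). LDHB, the lactate dehydrogenase subunit of oxidative tissue, was higher by 0.90 (SE 0.13, limma adjusted p = 0.00392), and DLAT, a subunit of pyruvate dehydrogenase, by 1.02.

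Of 17 genes of glucose synthesis and glycogen, 3 were called higher and 6 lower, among them PGM1, which feeds glucose into and out of glycogen (-1.98, limma adjusted p = 0.000407), PYGL (-1.12), PCK2 (8.36 and 8.88 in QGP1, 7.83 and 7.41 in NCI-H727) and FBP1 (-0.83). Of 8 pentose phosphate genes, 2 were called higher, H6PD (1.32) and PGLS (1.29), and 1 lower, PGD (-0.80). Of 15 genes of mTOR, AMPK and MYC signalling, 1 was called higher and 5 lower, the largest being MYCL (-1.26), PRKAA2 (-0.99) and TSC1 (-0.83). MYC, a general activator of glycolytic genes, differed by -0.41 (SE 0.13, limma adjusted p = 0.0471).

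The second comparison asked what DAXX siRNA did to these genes. With 1 array per condition in each line there is no replicate within a line, and the differences are described by size. The members stayed close to 0. Their median difference, DAXX-KD minus control, was 0.02 in QGP1 and 0.02 in NCI-H727, the same as the medians of all genes (0.02 and 0.02). In QGP1 1 of 31 members was at least 1.5-fold higher and 0 were lower, where 1.74% and 1.32% of all genes were. In NCI-H727 0 were at least 1.5-fold higher and 2 were lower, where 1.60% and 4.96% of all genes were. No member reached 2-fold in either line in the values as deposited, a size passed by 0.259% of all genes upward and 0.232% downward in QGP1, and by 0.177% and 1.32% in NCI-H727. After intensity-dependent centring SLC2A3 passed it in NCI-H727, at -1.05. As a yardstick for probe sets alone, knockdown differences of probe sets for the same gene spread with an SD of 0.20 in QGP1 and 0.28 in NCI-H727. These probe sets share the same pair of arrays, so the SD holds no variation between cultures, electroporations or arrays.

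**Figure D4:**
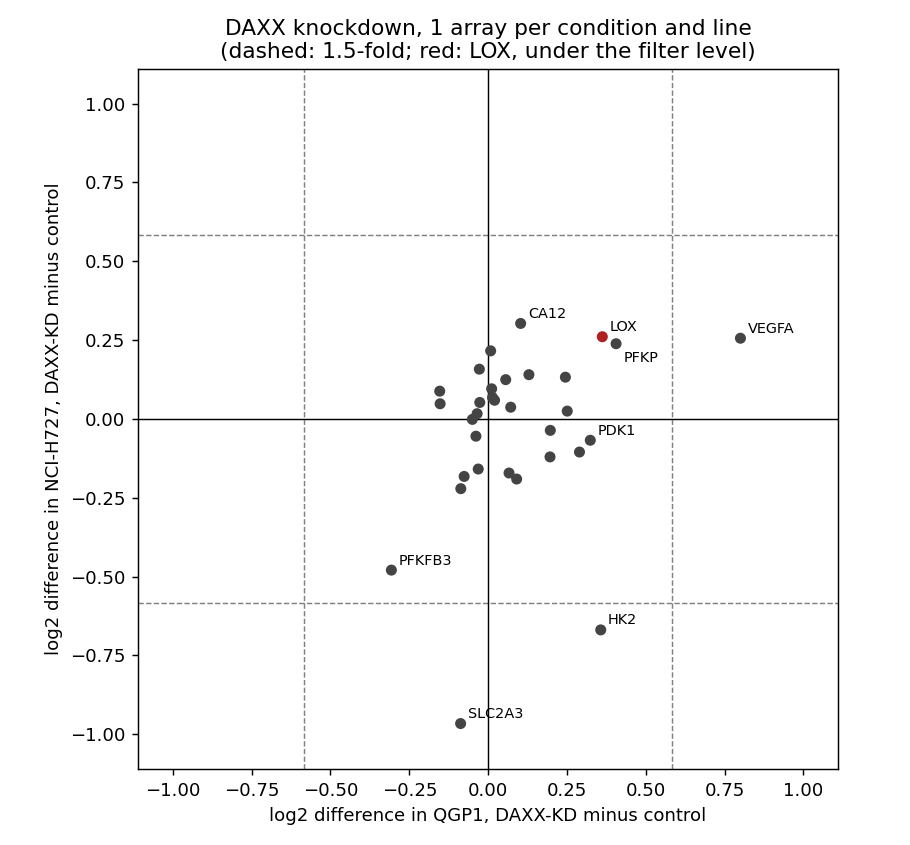
log2 difference DAXX-KD minus control in QGP1 (x axis) and in NCI-H727 (y axis), 1 array per condition and line, 1 point per member; dashed lines mark 1.5-fold and the red point is LOX. VEGFA at 0.80 in QGP1, and SLC2A3 at -0.97 and HK2 at -0.67 in NCI-H727, are the members past 1.5-fold.

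VEGFA was the member that differed most in QGP1. It read 9.39 in the control and 10.19 in the DAXX-KD array, 1.74-fold higher, and in NCI-H727 10.26 and 10.52, 1.19-fold higher. Its 3 dimmer probe sets gave 0.50, 0.70 and 0.00 for QGP1 and 0.15, 0.27 and 0.33 for NCI-H727, so 3 of 4 were higher in QGP1 and 4 of 4 in NCI-H727. With the mean of its probe sets the QGP1 difference was 0.50, under 1.5-fold. In the joint limma fit of both lines, with line as a block, VEGFA differed by 0.53 (SE 0.17, higher in 2 of 2 lines, limma adjusted p = 0.639).

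SLC2A3 and HK2 were the members at least 1.5-fold lower in NCI-H727. SLC2A3 went from 4.92 to 3.95, across the filter level, a difference of -0.97 against a value too dim to give a fold. Set against the filter level the SLC2A3 control was 1.05-fold higher, so its place past 1.5-fold rests on that dim value. The other SLC2A3 probe sets went the other way, by 0.18 and 0.32, and in QGP1 the representative one differed by -0.09. HK2 went from 8.86 to 8.19, 1.59-fold lower, and its other probe sets were lower in NCI-H727 as well, by -0.52 and -0.32. In QGP1 HK2 went from 9.81 to 10.16, 1.28-fold higher, with the others at -0.10 and 0.22. HK2 was the 1 member of 31 with opposite signs and at least 1.2-fold in both lines, where 3.80% of all genes were.

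PFKFB3 was lower in both DAXX-KD arrays, from 8.95 to 8.65 in QGP1 and from 9.55 to 9.07 in NCI-H727. The joint limma difference was -0.39 (SE 0.13, lower in 2 of 2 lines, limma adjusted p = 0.639), and PFKFB3 has 1 probe set. PFKP was higher in both, by 0.41 and 0.24 (joint 0.32, SE 0.13, limma adjusted p = 0.738), and so was LOX, by 0.36 and 0.26, the latter between values under the filter level. CA12 differed by 0.10 and 0.30. PDK1, BNIP3 and BNIP3L differed by 0.32, 0.25 and 0.29 in QGP1, and by -0.07, 0.02 and -0.11 in NCI-H727. Their second probe sets past the filter gave 0.52, 0.21 and 0.18 in QGP1 and 0.10, 0.16 and 0.22 in NCI-H727. The negative signs of PDK1 and BNIP3L in NCI-H727 thus depend on the probe set.

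Most enzymes from GPI to LDHA differed little. At the probe sets that stand for them, GPI, ALDOA, TPI1, GAPDH, PGK1, PGAM1, ENO1, PKM and LDHA differed by no more than 0.15 in size in QGP1 and 0.18 in NCI-H727. Dimmer probe sets past the filter could differ more. In NCI-H727 those of PGK1 were all lower, by -0.02 to -0.48, and those of ENO1 were higher by 0.20 each. NDRG1 differed by 0.02 and 0.06, ADM by 0.20 and -0.04, and SLC2A1 by 0.25 and 0.13. The second SLC2A1 probe set gave -0.09 in QGP1 and 0.23 in NCI-H727. EGLN1 and EGLN3 differed by 0.01 each in QGP1 and by 0.07 and 0.10 in NCI-H727 at the probe sets that stand for them. The second EGLN3 probe set was higher by 0.57 in QGP1 and 0.40 in NCI-H727. With the mean of its probe sets EGLN3 differed by 0.29 and 0.25. The dimmer EGLN1 probe sets past the filter differed by 0.14 and 0.38 in QGP1 and by 0.13 and -0.06 in NCI-H727. HIF1A differed by 0.08 in both lines and VHL by 0.03 and 0.07.

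The joint limma fit called 0 members and 0 of all genes (0% called), and no adjusted p fell below 0.374. Counting by an unadjusted limma p under 0.05 instead gave 1 member higher (VEGFA) and 1 lower (PFKFB3), where 2.80% and 4.12% of all genes were. When the limma prior followed intensity, 0 members and 5 of all genes passed. The fit has 1 residual degree of freedom, with 4.18 more from the prior, so a missed threshold does not show that the members stayed level.

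Around the members, the counts of each list past 1.5-fold stand beside the shares of all genes (1.74% higher and 1.32% lower in QGP1, 1.60% and 4.96% in NCI-H727). DDIT4, a hypoxia and stress target that inhibits mTORC1, went from 9.11 to 11.34 in QGP1 and from 9.96 to 9.67 in NCI-H727. Of 33 further hypoxia targets, 2 were at least 1.5-fold higher and 1 lower in QGP1, and 2 higher and 1 lower in NCI-H727. Among the other isozymes and transporters 0 of 16 passed 1.5-fold in QGP1 and 3 were lower in NCI-H727. In the pyruvate and lactate list 2 of 21 were at least 1.5-fold higher in QGP1, and 3 of 15 genes of mTOR, AMPK and MYC signalling were lower in NCI-H727. The HIF regulators, pentose phosphate genes and genes of glucose synthesis and glycogen had 0 past 1.5-fold in either line.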

How the data were processed

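Total RNA of 4 samples was measured on 4 one-colour Affymetrix arrays, after 3' IVT amplification and biotin labelling, per the labels' protocols. The deposited table held log2 values of 54613 probe sets. Per the submitters' processing notes the authors ran RMA from affy 1.40.0 under R 3.0.3. RMA corrects background, quantile-normalizes and summarises probe sets, so a shift shared by most genes is removed and dim differences are compressed. Names came from GEO's platform annotation, where 41091 probe sets had 1 symbol, 1801 several and 11721 none, and those of the last kinds were left out.

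Tests left out genes whose mean lay below the 40th percentile of probe sets (4.85). Tests used limma 3.58.1 in R 4.3.3 (lmFit, eBayes, two-sided) on all 4 arrays with terms for line and treatment, and Benjamini-Hochberg adjustment over 14648 genes. On simulated data of this design with 14648 genes the line test recovered 58 of 100 genes with a log2 difference of 1 and 99 of 100 with 2. Of its 170 calls 13 (7.65%) were unchanged genes, so adjusted p-values may be lenient. No other genes were changed there, whereas 48.3% of genes were called in the data. These shares therefore need not carry over to the calls given here. Precision is limited by having 4 arrays. The text gives every member, and around them fixed lists with 3 called genes each and some regulators named in advance; SLC16A1 and SLC16A3, also on that list, are not analysed here. The named markers were singled out after their values were seen. The members and lists were chosen with earlier results of these data known. Alternatives changed the probe set rule, filter, normalization, prior, terms and arrays. Sequences are from RefSeq (GRCh38.p14).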

Additional observations from a re-analysis of the deposited data

Results flagged for a closer look

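HK2 was the 1 member whose knockdown differences had opposite signs in the 2 lines with at least 1.2-fold in both, at 0.36 in QGP1 and -0.67 in NCI-H727. With 1 array per condition and line this difference was not tested. The same held for 3.80% of all genes, and 1 of 31 members is 3.23%. The dimmer HK2 probe sets differed by -0.10 and 0.22 in QGP1 and by -0.52 and -0.32 in NCI-H727, so the sign in QGP1 depends on the probe set while all 3 were lower in NCI-H727.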

How the results depend on the processing

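All 21 called members kept the direction of the line difference in every alternative that was run, and 10 of the 21 kept the call in each: ADM, SLC2A1, SLC2A3, GPI, PFKM, ALDOA, ALDOC, PKM, BNIP3 and BNIP3L. SLC2A3 among them is dim under the NCI-H727 label. How many of all called genes kept their call in each is not given here. Not every alternative could change each of these genes. ADM, GPI, PFKM and ALDOC have 1 probe set, so averaging probe sets left their values as they were. SLC2A3, GPI, PFKM and ALDOA have only x_at or s_at probe sets, so the alternative without those was not run for them. Leaving out each array in turn, with no treatment term and the lone array of a line assumed to vary like the other line's 2, gave 8 to 12 members called higher under the NCI-H727 label and 4 to 7 lower, while the share of all genes called fell from 48.3% to between 30.8% and 45.5%. Without x_at and s_at probe sets 16 members were left, 7 called higher and 4 lower, where 46.8% of all genes were called. Of these 16 members, 0 were at least 1.5-fold higher in QGP1 and 1 was lower in NCI-H727. Averaging the probe sets of each gene left 0 members past 1.5-fold higher in QGP1 and 0 past it lower in NCI-H727, and so did a limit of 2-fold. After a second quantile normalization 1 member, against 2, was past 1.5-fold lower in NCI-H727. The joint knockdown fit called 0 members under every alternative, also with no block for cell line. Leaving out an array from a knockdown comparison leaves no pair of arrays in that line, so it was not run. The labels give no replicate numbers, so the arrays were paired by line and treatment alone, through the terms of the fits.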
